A study of Homo sapiens with 39 samples.

Results

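The metallothionein genes MT1A, MT1E, MT1F, MT1G, MT1H, MT1M, MT1X and MT2A were examined in HepaRG cells exposed to 10 chemicals. They are 8 of the 20802 gene targets of a whole-transcriptome amplicon panel and were chosen by symbol, each having 1 target in the count and RPM matrices of 39 libraries. HepaRG is a human hepatoma line that differentiates into hepatocyte-like and bile-duct-like cells, here differentiated cells thawed and plated before dosing. The 5 DNA damage-inducing (DDI) chemicals were aflatoxin B1 (AFB1; 0.25, 1 and 2.5 µM), cisplatin (CISP; 2, 5 and 10 µM), etoposide (ETP; 0.5, 2.5 and 10 µM), methyl methanesulfonate (MMS; 50, 100 and 200 µM) and 2-nitrofluorene (2NF; 10, 50 and 250 µM). The 5 non-DDI chemicals were colchicine (COL; 0.05, 0.1 and 0.3 µM), 2-deoxyglucose (2DG; 1.25, 5 and 10 mM), sodium ascorbate (ASC; 1, 2 and 10 mM), ampicillin (AMP; 1, 3 and 10 mM) and sodium chloride (NaCl; 1, 2.5 and 10 mM). The concentrations are called low, mid and high. Every culture was dosed daily for 3 days and sampled 7 h after the last dose. There were 9 vehicle controls, 4 in DMSO (for CISP, 2NF, ETP, and 1 shared by AFB1 and COL), 4 in media (for 2DG, ASC, AMP and NaCl) and 1 in water (for MMS).

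Each condition is 1 library made from the pooled RNA of 3 cultures, so no single condition carries a replicate error. Tests therefore took their spread from differences between concentrations or between chemicals. A level in 1 library was read against the spread of the controls, by the larger of the DMSO and the media range. Libraries held 8504699 to 16425527 counts (median 11202013), so 1 count is worth 0.0609 to 0.118 RPM (reads of a target scaled to the same total in every library). MMS at the mid and high concentrations stood apart over all genes, with a median correlation to the other libraries of 0.923 and 0.932 against 0.954 to 0.982 for the rest. All 10 hepatocyte markers looked up, among them ALB and APOA1, were detected in the controls. Of the 8 bile-duct markers, 5 had a median of at least 1 RPM in the controls, led by KRT19 at 1076 RPM, SPP1 at 75.6 RPM and SOX9 at 26.2 RPM, and KRT7, EPCAM and CFTR stayed under 10 counts in each library.

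Metallothioneins are small cytosolic proteins whose many cysteines bind zinc and copper, and also cadmium and other heavy metals. Liver is one of their main sites of synthesis. Their genes are switched on by the zinc-sensing transcription factor MTF1, which binds short metal response elements in the promoters, and glucocorticoids, acute-phase cytokines and oxidative stress raise them too. MT2A and the MT1 genes are the forms made in most tissues, and cisplatin, a platinum drug, is known to react with their thiol groups.

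The genes lie side by side on chromosome 16, in the order MT2A, MT1E, MT1M, MT1A, MT1F, MT1G, MT1H and MT1X in the RefSeq annotation. Their coding sequences, taken from the GENCODE transcripts, are nearly the same. Each has 61 codons before the stop, 20 of them for cysteine, and the 28 pairs shared 88.5% (MT1F and MT1X) to 95.1% (MT1G and MT2A) of their bases, with a median of 91.8%. The positions of the amplicons were not used here, so whether they lie in these shared bases is unknown. Reads of single members may be split between near-identical genes, and their values are uncertain to that extent, which is why the sum of the 8 is given as well.

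The regulatory stretch that MTF1 is known to bind is shown for the 3 members that the RefSeq promoter table holds, MT2A, MT1H and MT1X. These are the 250 bases before each start site on the plus strand of GRCh38.p14, at chr16:56608334-56608583, chr16:56669564-56669813 and chr16:56682220-56682469. Capitals mark the core letters of the metal response element, TGCACNC or TGCGCNC, read on either strand.
MT2A: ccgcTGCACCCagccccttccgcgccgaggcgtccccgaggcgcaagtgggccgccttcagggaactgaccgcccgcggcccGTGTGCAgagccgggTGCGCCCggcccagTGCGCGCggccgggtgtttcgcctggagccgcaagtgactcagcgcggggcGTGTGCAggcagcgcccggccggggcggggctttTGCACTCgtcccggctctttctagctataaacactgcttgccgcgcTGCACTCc
MT1H: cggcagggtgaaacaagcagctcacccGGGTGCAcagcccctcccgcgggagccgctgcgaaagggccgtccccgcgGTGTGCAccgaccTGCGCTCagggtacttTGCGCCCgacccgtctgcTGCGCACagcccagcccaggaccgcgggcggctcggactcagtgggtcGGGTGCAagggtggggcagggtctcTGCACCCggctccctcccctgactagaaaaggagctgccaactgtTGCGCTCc
MT1X: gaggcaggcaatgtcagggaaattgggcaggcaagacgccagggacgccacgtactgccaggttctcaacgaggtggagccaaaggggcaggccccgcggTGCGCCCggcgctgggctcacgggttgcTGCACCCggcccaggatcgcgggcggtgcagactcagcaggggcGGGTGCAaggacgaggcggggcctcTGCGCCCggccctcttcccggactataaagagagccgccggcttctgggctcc
The core occurs 7 times before MT2A, 8 times before MT1H and 4 times before MT1X. Of 35116 promoters of the same length, 24.8% hold at least 1 match, 0.37% at least 4 and 0.0313% at least 7. A match describes letters and does not show that a site is in use. The panel reads were aligned to hg19, so these coordinates serve only the sequences.

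MT2A gave most of the metallothionein reads. Its level over the 39 libraries ran from 1821 RPM in the AMP control to 7847 RPM in MMS at 200 µM, with a median of 3342 RPM. It supplied a median of 81.7% of the family's reads, from 75.2% in ASC at 2 mM (95% Wilson interval 74.8 to 75.7%) to 91.1% in 2DG at 1.25 mM (90.8 to 91.4%). These intervals cover counting error only. The panel reads 1 amplicon per gene, so values do not scale with transcript length, but amplicons can differ in yield and a share is one of reads, not of transcripts.

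MT1E was second, with a median of 418 RPM (123 in CISP at 2 µM to 854 in 2NF at 250 µM). MT1X followed at 263 RPM (78.6 in the ASC control to 685 in the 2NF control). MT1A had a median of 44.2 RPM (24.4 in the ETP control to 79.3 in ASC at 2 mM). In this order of levels MT2A did not overlap with any other member, whereas the ranges of MT1E and MT1X overlapped over most of their length.

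The remaining members were low. MT1F had a median of 6.02 RPM, with 31 to 135 counts per library. MT1G and MT1M had medians of 1.22 and 0.742 RPM, and reached 10 counts in 26 and 14 of the 39 libraries. MT1H, which carries the most metal response cores of the 3 promoters shown, was at 0 in 18 libraries and never above 4 counts, and the limit that a count of 0 allows (3 counts) is 0.183 to 0.353 RPM at these depths. It was not tested and no fold is given for it. The other 7 members passed the filter on low counts.

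The controls alone spread widely. MT1E had 157 RPM in the ASC control and 161 RPM in the AMP control, but 560 RPM in the 2DG control and 580.0 RPM in the NaCl control, all 4 in media. MT1X followed the same split at 78.6, 84.4, 285 and 271 RPM. MT2A did so at 2000, 1821, 3506 and 3689 RPM, while MT1A, at 45.7, 43.8, 46.4 and 34.7 RPM, did not.

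Among the 4 DMSO controls the ETP control was lowest and the 2NF control highest for all 4 of the more abundant members. MT2A was 3227 ± 889 RPM there (SD, n = 4), from 2639 to 4550 RPM. MT1X was 341 ± 238 RPM (SD, n = 4), from 147 to 685 RPM. The MT1A values were 24.4 RPM in the ETP control, 29.4 in the CISP control, 42.3 in the control shared by AFB1 and COL and 47.4 in the 2NF control, so the controls of CISP and ETP were the lower pair.

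Set against 11562 genes, the SD of log2(RPM + 1) over the 9 controls was 0.99 for MT1X (percentile 99.8) and 0.78 for MT1E (percentile 99.0), where the median gene had 0.22. MT2A had an SD of 0.41 (percentile 86.9), MT1A 0.32 (75.6) and MT1F 0.29 (68.3). The largest log2 difference between controls of 1 vehicle was 1.02 for MT2A, 0.93 for MT1A, 0.82 for MT1F, 1.88 for MT1E, 2.21 for MT1X and 1.11 for the family sum. These differences, each the larger of the DMSO and the media range, are used below as 1 limit for libraries of every vehicle. A treated library must pass it to stand outside the controls. In DMSO alone the differences were 0.79 for MT2A, 1.37 for MT1E, 0.54 for MT1F and 0.95 for the family sum. In media alone they were 0.41 for MT1A and 1.84 for MT1X. The part that handling or library preparation played in them was not tested.

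Cisplatin was set against all other chemicals. The family sum was 3594 RPM in the CISP control and 2628, 5672 and 4561 RPM at 2, 5 and 10 µM, which are log2 ratios of -0.45, 0.66 and 0.34. All of these lie within the control limit of 1.11. Ranked from the highest among the 10 chemicals, CISP stood 9th at the low, 3rd at the mid and 7th at the high concentration.

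MT2A had 2805 RPM in the CISP control and 2377, 4329 and 3660.1 RPM at 2, 5 and 10 µM. MT1E had 453 RPM in the control and 123, 713 and 469 RPM at those concentrations. MT1X had 299 RPM in the control and 87.2, 546 and 376 RPM. All 3 members were lower than the control at 2 µM and higher at 5 µM, with log2 ratios at 2 µM of -1.87 for MT1E, -1.77 for MT1X and -0.24 for MT2A. At 5 µM the ratios were closer, at 0.65, 0.86 and 0.63. The MT1E ratio at 2 µM was inside its limit of 1.88 but outside the DMSO range of 1.37. The same held for MT1E with 2NF at 50 µM (-1.79). Over all 14107 genes tested, 861 were past 2-fold lower and 42 past 2-fold higher than the control in CISP at 2 µM. At 5 µM these numbers were 559 and 121, and at 10 µM they were 52 and 66. The part of this wider shift in the member values was not tested.

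MT1A behaved otherwise: it had 29.4 RPM in the control and 37.0, 70.7 and 50.0 RPM with CISP. Its log2 ratios were 0.32, 1.24 and 0.75, and CISP stood 4th, 1st and 2nd among the 10 chemicals. The value at 5 µM passed the MT1A control limit of 0.93. Against the mean of the 4 DMSO controls, the ratios were 0.09, 1.01 and 0.52.

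MT1F had 6.02 RPM in the control and 2.43, 8.98 and 4.35 RPM with CISP, and the value at 2 µM was the lowest of all 39 libraries. Its log2 ratio there, -1.03, was outside the MT1F control limit of 0.82. MT1G had 1.24 RPM and then 0.33, 2.93 and 1.39 RPM, and MT1M had 0.74 RPM and then 0.46, 1.61 and 0.74 RPM. For 7 members alike, 5 µM was the highest of the 3 CISP concentrations.

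In the test of cisplatin against the other 9 chemicals (edgeR quasi-likelihood, Benjamini-Hochberg adjusted over 14107 genes), 0 of 7 members passed an adjusted p of 0.05. The background was 0% of all genes called, so the test separated cisplatin at no gene. Unadjusted p-values under 0.05 were held by 1109 genes and by 0 of the 7 members, and DESeq2 also called 0 genes. MT1A had the largest difference, a log2 of 0.70 (SE 0.38, adjusted p = 0.634).

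MT2A differed by a log2 of 0.06 (SE 0.40, adjusted p = 0.972 by edgeR) and MT1E by -0.28 (SE 0.79, adjusted p = 0.930). MT1X differed by -0.12 (SE 0.73), MT1F by -0.48 (SE 0.63), MT1G by 0.07 (SE 0.90) and MT1M by 0.45 (SE 0.77). Their median was 0.059, beside 0.041 over all genes tested. With standard errors of 0.63 and more, a 2-fold difference between cisplatin and the other chemicals could not be told from none for MT1E, MT1X, MT1F, MT1G and MT1M. The standard errors of MT2A and MT1A were smaller, but the adjusted test could easily miss such a difference for them too. On simulated data it recovered 31 of 200 genes changed 2-fold.

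Against its own control, with the spread taken between concentrations, CISP gave 0 of 7 members (background 0% of 14107 genes, 983 with an unadjusted p under 0.05, and 1 gene by DESeq2). MT1A was the member with an unadjusted p under 0.05, at a log2 difference of 0.86 (SE 0.29, adjusted p = 0.671 by edgeR). MT2A stood at 0.32 (SE 0.37). CDKN1A, a p53 target that stops the cell cycle, was at 0.47 (SE 0.23, adjusted p = 0.702) in the same fit, and MDM2, which degrades p53, at 0.07 (SE 0.45). The summed hepatocyte markers had 48526 RPM in the CISP control, the highest control value, and 35143, 25369 and 37869 RPM with CISP. KRT19 had 397 RPM and then 845, 856 and 720 RPM, at a log2 difference of 1.05 (SE 0.27, adjusted p = 0.627 by edgeR). Of the 5 bile-duct markers tested 0 passed, with a median log2 of 0.146. The part of these markers in the CISP values was not tested.

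**Figure D1:**
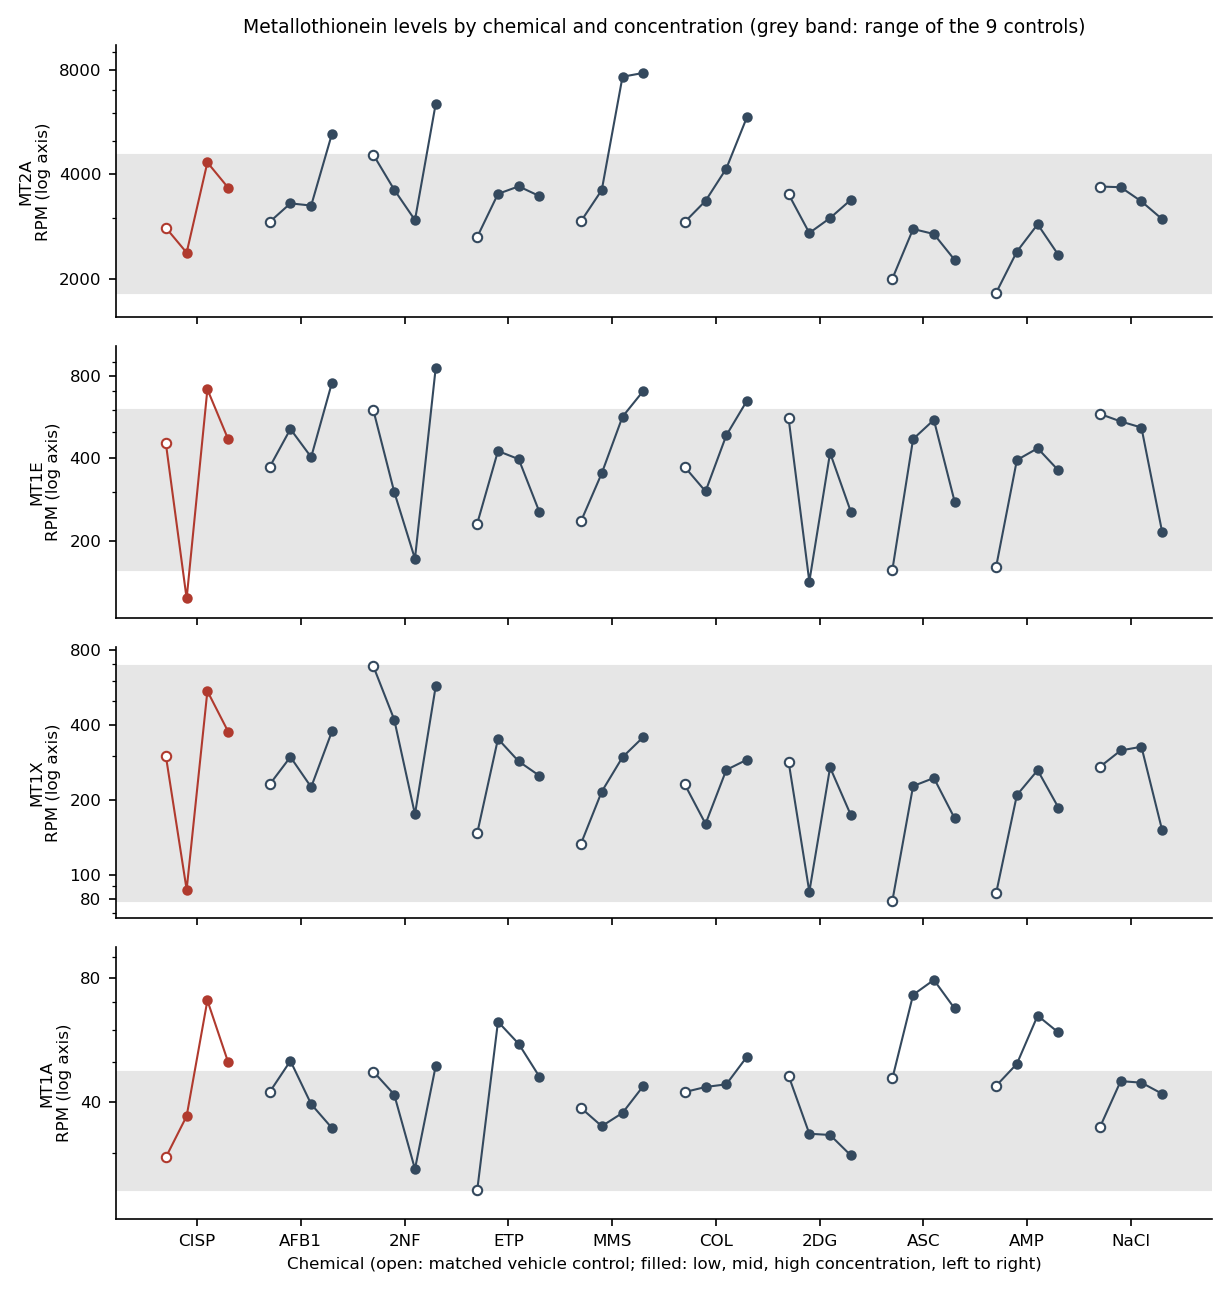
RPM (log axis) of MT2A, MT1E, MT1X and MT1A for each chemical, with the matched vehicle control as an open point and the low, mid and high concentrations as filled points from left to right; red marks CISP, and the grey band spans the 9 controls. MT2A passes the band in 5 libraries, MMS mid and high and the high concentrations of AFB1, 2NF and COL, whereas CISP stays inside it for MT2A. CISP leaves the band for MT1E, below at low and above at mid, and for MT1A, above at mid and high.

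MT2A was highest with MMS, an alkylating agent. It had 2929.8 RPM in the water control and 3603, 7651 and 7847 RPM at 50, 100 and 200 µM, the last 2 being 2.61- and 2.68-fold the control on the RPM + 1 scale. The log2 ratios of 1.38 and 1.42 were the only ones of MT2A outside its control limit of 1.02. That limit comes from the DMSO and media controls, since MMS has a single water control. By the DMSO range of 0.79 alone, MT2A with COL at 0.3 µM (1.01) and AFB1 at 2.5 µM (0.84) would stand outside as well.

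MT1E had 236 RPM in the control and 352, 566 and 703 RPM, and MT1X had 133 RPM and then 216, 296 and 357 RPM. Both were higher at each step, while MT1A was not: it had 38.7 RPM in the control and 35.0, 37.6 and 43.8 RPM. The family sum had log2 ratios of 0.33, 1.36 and 1.42.

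In the fit with 1 term per chemical, 0 of 7 members passed for MMS, where 1.14% of all genes did. The MT2A difference was a log2 of 1.02 (SE 0.39, adjusted p = 0.179 by edgeR). With the rank of the concentration in place of treated or not, MT2A passed at a log2 of 0.50 per step (SE 0.12, adjusted p = 0.00442), as 1 of 7 members where 15.5% of all genes passed. Without the low concentration it passed at 1.31 (SE 0.35, adjusted p = 0.0213), where 11.5% passed. A count of 1 in 7 is near those backgrounds.

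Cell markers were lower in the MMS libraries as well. The summed level of the 10 hepatocyte markers was 3682 to 19608 RPM in the 3 MMS libraries and 24284 to 48526 RPM in the controls, and 0 of the 10 passed the test. Of 5 bile-duct markers tested 2 fell, SOX9 by 1.28 (SE 0.31, adjusted p = 0.0407 by edgeR) and SPP1 by 1.35 (SE 0.31, adjusted p = 0.0314) on the log2 scale. In bulk RNA fewer cells of a type and less RNA per cell cannot be told apart. The part of this shift in the metallothionein values was not tested.

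COL, which blocks microtubule assembly, gave a stepwise MT2A series. The control shared with AFB1 had 2915 RPM and COL had 3354, 4156 and 5861 RPM at 0.05, 0.1 and 0.3 µM. The last log2 ratio, 1.01, lay just inside the control limit of 1.02, which is the media range, but outside the DMSO range of 0.79. MT1F had 5.37 RPM in that control and 5.01, 6.85 and 13.1 RPM, the last being its highest level in the series. The summed hepatocyte markers had 41580 RPM in that control and 37093, 35774 and 19851 RPM with COL, and their part in the MT2A values was not tested.

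By treatment alone, 0 of 7 members passed for COL (0.0496% of all genes), with MT2A at a log2 of 0.56 (SE 0.38, adjusted p = 0.691 by edgeR). By rank of the concentration, MT2A passed at 0.33 per step (SE 0.10, adjusted p = 0.0335), again 1 of 7 where 12.3% of all genes passed. AFB1, set against the same control library, had 3299, 3251 and 5233 RPM of MT2A, beside 44415, 33520.4 and 25250.3 RPM of the hepatocyte markers. Its rank fit gave 0.24 per step (SE 0.10, adjusted p = 0.214) and 0 of 7 members, where 5.57% of all genes passed.

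For 2NF, MT2A had 4550 RPM in the control and 3613, 2952 and 6393 RPM at 10, 50 and 250 µM. MT1E had 597 RPM and then 302, 172 and 854 RPM, and MT1X had 685 RPM and then 420, 175 and 571 RPM. The middle concentration was thus the lowest and the top one the highest for MT2A and MT1E. The summed hepatocyte markers had 35995 RPM in the control and 29662, 14627 and 12672 RPM, and 1 of 5 bile-duct markers fell, KRT19 by a log2 of 1.66 (SE 0.23, adjusted p = 0.00101 by edgeR). For 2NF 0.0284% of all genes and 0 of 7 members passed by treatment, and 8.75% of genes and 0 of 7 members by rank.

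With ETP, a topoisomerase poison, the MT1A ratio was the highest of the 10 chemicals at the low and high concentrations. At the mid concentration that of CISP was higher, at a log2 of 1.24. MT1A had 24.4 RPM in the ETP control, the lowest of the 39 libraries. With ETP it had 62.8, 55.4 and 46.1 RPM at 0.5, 2.5 and 10 µM. The low and mid ratios, 1.33 and 1.15 on the log2 scale, passed the control limit of 0.93, but against the mean of the DMSO controls they became 0.84, 0.66 and 0.40. Against the mean of the controls of their vehicles, CISP mid and ASC mid stood higher, at 1.01 and 0.89. The fitted MT1A difference with ETP was 1.15 (SE 0.29, adjusted p = 0.996 by edgeR). For ETP 0% of all genes passed by treatment and 0.0796% by rank, with 0 of 7 members in both.

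With ASC all 7 tested members had log2 ratios above 0 at each concentration. MT1E had 157 RPM in the control and 470, 552 and 278 RPM at 1, 2 and 10 mM. MT1A had 45.7 RPM and then 73.0, 79.3 and 67.6 RPM, all 3 above the range of the 9 controls. MT1F had 3.17 RPM and then 9.97, 9.31 and 10.4 RPM, with log2 ratios of 1.40, 1.31 and 1.45 that passed its control limit of 0.82.

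Both controls belong to the low pair of media controls described above. Against the mean of the 4 media controls, the MT1E ratios with ASC changed from 1.58, 1.81 and 0.82 to 0.64, 0.87 and -0.11. Those of MT1A changed little, from 0.66, 0.78 and 0.56 to 0.77, 0.89 and 0.66, and those of MT1F became 0.92, 0.84 and 0.98. The MT1F ratios still passed 0.82 under either control, whereas that of MT1E at 10 mM changed sign.

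In the ASC fit 0 of 7 members passed, with 0% of all genes by treatment and 0.0579% by rank. MT1A (log2 0.69, SE 0.28, adjusted p = 0.362 by edgeR), MT1F (1.65, SE 0.63, adjusted p = 0.362) and MT1X (1.45, SE 0.69, adjusted p = 0.405) had unadjusted p-values under 0.05. With the vehicle as the block in place of the matched control, MT1A passed at 0.80 (SE 0.19, adjusted p = 0.0444), 1 of 7 where 0.673% of all genes passed.

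AMP gave MT1E levels of 161 RPM in the control and 394, 435 and 361 RPM at 1, 3 and 10 mM. MT1A had 43.8 RPM and then 49.6, 64.9 and 59.1 RPM. No gene passed for AMP by treatment or by rank (0% in both).

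The median fitted log2 difference of the 7 members was below 0 for 2NF (-0.48), 2DG (-0.65) and NaCl (-0.12). With 2DG, MT1E had 560 RPM in the control and 142, 418 and 255 RPM at 1.25, 5 and 10 mM. The log2 ratio of -1.97 was the only one of MT1E outside its control limit of 1.88, which is the media range. MT1A had 46.4 RPM and then 33.5, 33.3 and 29.7 RPM. With NaCl, MT1E had 580.0 RPM and then 544, 517 and 215 RPM. Members passed in 0 of 7 cases for both, with 0% of all genes for 2DG by treatment and by rank, and 0% by treatment and 0.0434% by rank for NaCl. For AFB1 by treatment and CISP by rank the shares were likewise 0 of 7 members and 0% of all genes. Over the 10 fits by treatment, unadjusted p-values under 0.05 were held by 1 member each for CISP, ETP and MMS, by 3 for ASC and by 0 for the other 6 chemicals. Over all genes their number ran from 134 for 2DG to 2407 for MMS, and DESeq2 called 0 members and 0 to 339 genes.

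Taking single libraries against their controls, 38 of 210 pairs of a tested member and a treated library were past 2-fold on the log2(RPM + 1) scale, 29 higher and 9 lower. This is 18.1%, beside 3.1% of all gene and library pairs. MT1E held 13 of the 38 and MT1X 12, against 6 for MT1F, 3 each for MT1A and MT2A, 1 for MT1G and 0 for MT1M. MT1E and MT1X, the 2 members that spread most among the controls, thus held most of these pairs. Against the mean of the controls of a vehicle the count was 18 (8.57%, beside 2.25% of all pairs), and without MMS mid and high it was 31 of 196 (15.8%, beside 2.66%). For MMS, with its single water control, the vehicle mean is the matched control, so its pairs could not change. MMS mid held 3 of the 18 pairs and MMS high 4.

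The family sum was past 2-fold in 2 of 30 libraries, MMS mid and MMS high. Outside these, its log2 ratios ran from -0.82 in 2NF mid to 0.94 in COL high.

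DDI and non-DDI chemicals were compared at the high concentration, with the chemicals as replicates of a class. The log2 ratio of MT2A was 0.38 with CISP, 0.84 with AFB1, 0.49 with 2NF, 0.39 with ETP and 1.42 with MMS, a mean of 0.71 ± 0.44 (SD, n = 5). For the non-DDI chemicals it was 1.01 with COL, -0.05 with 2DG, 0.18 with ASC, 0.36 with AMP and -0.31 with NaCl, a mean of 0.24 ± 0.50 (SD, n = 5). The MT2A groups overlapped through COL. Those of every other member and of the family sum (0.69 ± 0.46 against 0.22 ± 0.55) overlapped too, not always through COL.

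The test across 13602 genes called 0 of 7 members, where 0.0515% of all genes (7, each higher in DDI) passed. DESeq2 called 96 genes and edgeR gave 1068 an unadjusted p under 0.05, of which 0 were members. The fitted difference of MT2A was a log2 of 0.30 (SE 0.22, adjusted p = 0.814 by edgeR), that of MT1F -0.66 (SE 0.35, adjusted p = 0.707) and that of MT1A -0.02 (SE 0.26). Their median was 0.343, beside -0.014 over all genes.

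The members did not move as a single block. Over the 39 libraries, which share the controls and the treatments, the Pearson r of log2(RPM + 1) was 0.87 between MT1E and MT1X (Spearman 0.83), 0.71 between MT1E and MT1F and 0.70 between MT1E and MT2A. MT1A and MT2A gave -0.03 (Spearman 0.01), and MT1A and MT1F 0.52. Among the 9 controls alone MT1E correlated with MT2A at 0.91, and MT1A with MT2A at 0.06. These are descriptions, and reads shared between near-identical members could raise them.

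Library depth moved with the levels as well. MT1E had an r of -0.49 with the log2 total count over the 39 libraries (Spearman -0.47), and MT2A -0.47 (Spearman -0.55). The part of depth in the values was not tested.

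Outside the 8 members, the gene with the log2 ratios most like the family sum over the 30 conditions was MT1JP, a metallothionein pseudogene, with an r of 0.89 among 11557 candidates. Its counts were 0.831 to 3.22% of those of MT1E (median 1.86%), and whether its reads are its own cannot be told from the counts. Next came TMEM185B (0.89), ATP6V1G1, a subunit of the vacuolar proton pump (0.88), RPL28, a ribosomal protein (0.86), RNF126 (0.86) and THAP5 (0.85). RNPS1, TGS1, CCDC174 and SMARCD1 had 0.84 each.

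MT1E in particular ran with genes of other kinds. Of 11557 genes, 191 had an r above 0.8 with its log2 ratios and 38 an r below -0.8, against 13 and 19 for MT2A. The ribosomal protein genes RPL35A and RPL8, chosen here after their values were seen, ranked 2nd and 11th, whereas 73 ribosomal protein genes had a median r of 0.044 (-0.70 to 0.94). In CISP at 2 µM, where MT1E was lowest, RPL8 had 48.9 RPM against 332 RPM in its control, and in the ASC and AMP controls it had 157 and 186 RPM against 370.1 and 417 RPM in the NaCl and 2DG controls. What moved these genes together was not tested.

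**Figure D2:**
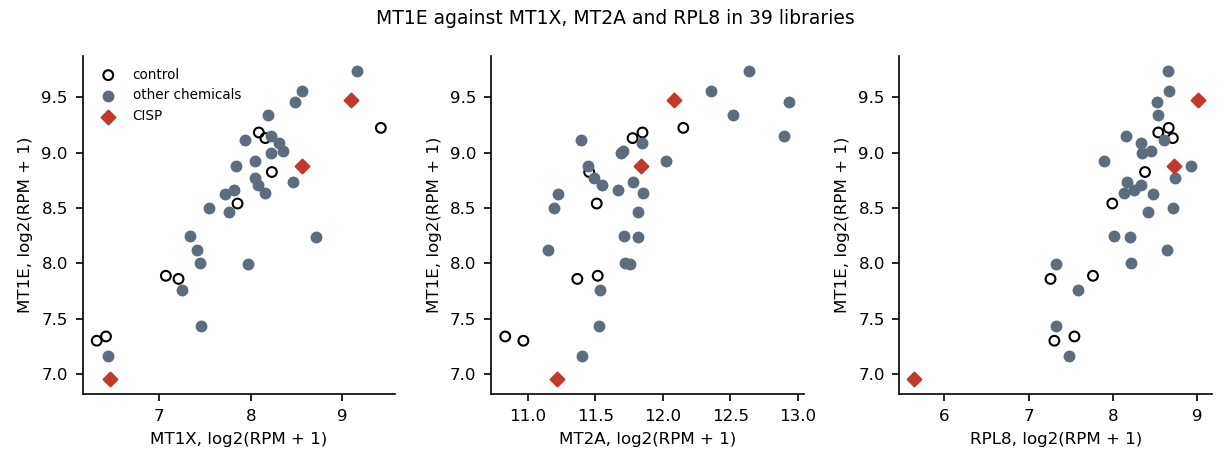
MT1E against MT1X, MT2A and RPL8 in the 39 libraries, all as log2(RPM + 1); open circles are controls, filled circles the other chemicals and red diamonds CISP. MT1E tracks MT1X (r = 0.87) and RPL8 (r = 0.81) more closely than MT2A (r = 0.70), and the lowest diamond in each panel is CISP at 2 µM.

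The genes around metallothionein regulation were looked up from lists of known genes. MTF1, the zinc sensor, had 24.9 RPM in the CISP control and 18.98, 14.5 and 23.1 RPM with CISP, and differed from the other chemicals by a log2 of -0.44 (SE 0.26, adjusted p = 0.640 by edgeR). Of 8 zinc exporter genes tested, 0 passed in either direction. SLC30A3 had the largest difference at 1.73 (SE 0.56, adjusted p = 0.604), followed by SLC30A6 at -0.57, SLC30A7 at -0.39 and SLC30A10 at 0.32. The level of SLC30A3 was low, at 0.58 RPM in the CISP control and 1.97, 1.32 and 2.69 RPM with CISP. SLC30A1, the exporter that MTF1 is known to induce, had 126 RPM in the CISP control and 160.0, 103 and 124 RPM with CISP.

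SLC30A1 was highest with MMS at 200 µM, with 91.9 RPM in the control and 109, 145 and 173 RPM at the 3 concentrations, the order that MT2A had. Its fitted log2 difference there was 0.54 (SE 0.26, adjusted p = 0.295 by edgeR). The order was not shared elsewhere: SLC30A1 and MT2A had an r of 0.24 over the 39 libraries. It was 0.06 for the log2 ratios of the 30 conditions and -0.55 in the 9 controls.

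Among 11 zinc importers 0 passed the cisplatin test, the largest differences being SLC39A10 at 1.92 (SE 1.41), SLC39A8 at -0.60, SLC39A6 at -0.54 and SLC39A5 at 0.50. SLC39A10 was near the floor, at 0.082 RPM in the CISP control and 0.26, 0.47 and 0.46 RPM with CISP. Of 10 copper handling genes 0 passed, with CP (ceruloplasmin) at 0.34, CCS at 0.32, ATOX1 at 0.24 and SOD1 at 0.18. Of 3 other metallothionein genes tested 0 passed, with MT1JP at -0.70, MT1B at -0.35 and MT4 at -0.18. MT1B and MT4 were low, at 0.83 and 0.50 RPM in the CISP control.

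Inducers of metallothionein other than metal were read through their own targets. Of 10 NRF2 targets (oxidative stress) 0 passed the cisplatin test, with the cystine importer SLC7A11 at -0.49, GCLC at -0.44, HMOX1 at -0.40 and TXNRD1 at 0.37. Of 7 glucocorticoid targets 0 passed, with TAT at 0.85, ZBTB16 at 0.59, KLF9 at 0.51 and DUSP1 at -0.17. Of 8 acute-phase genes 0 passed, with CRP at 1.06, HAMP at 0.65, SOCS3 at 0.37 and HP at 0.26. HAMP was near the floor, at 0.25 RPM in the CISP control.

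In MMS, where MT2A was highest, 1 of 10 NRF2 targets rose where 1.14% of all genes passed, SLC7A11 by a log2 of 1.72 (SE 0.41, adjusted p = 0.0359 by edgeR). HMOX1 was at 0.15 there (SE 0.42). Of the 7 glucocorticoid targets 1 fell, beside the same 1.14%, KLF9, which decreased by 1.18 (SE 0.29, adjusted p = 0.0412). In 2NF, HMOX1 had 18.7 RPM in the control and 40.6, 95.9 and 56.5 RPM at 10, 50 and 250 µM (log2 difference 1.74, SE 0.46, adjusted p = 0.119), and the 50 µM library with the most HMOX1 was the one with the least MT2A and MT1E of that chemical.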

How the data were processed

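Pooled RNA of 3 cultures per condition was amplified with an Ion AmpliSeq whole-transcriptome human panel. The authors aligned reads of 5 chips to the panel's transcripts on hg19 (Torrent Suite, TMAP, ampliSeqRNA plugin), and deposited a matrix of counts per target and a matrix of RPM, scaled by the total count without other normalization. The RPM values were recomputed from the counts and differed by at most 0.00054. The members and lists were chosen with earlier results of these data known.

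Levels were compared between a treated library and the control of its set as a log2 ratio of RPM + 1. Counts were tested with edgeR 4.0.16 (TMM, filterByExpr, quasi-likelihood, Benjamini-Hochberg over all genes tested, threshold 0.05) in R 4.3.3, leaving out 10 spike-in targets. The cisplatin fit used 39 libraries, the control set as a block and terms for treated and cisplatin (28 residual degrees of freedom). A second fit had 1 term per chemical (20 degrees), and another compared the classes at the high concentration in 19 libraries (8 degrees). Concentrations of a chemical and pooled libraries are not independent replicates, so p-values measure only the spread between these libraries. On simulated data with 200 genes changed 2-fold among 14107, the cisplatin fit recovered 31 with 0 false calls, the CISP fit 57 with 0 and the class fit 115 with 10. DESeq2 1.42.0 and the alternatives in the closing section were run beside these. Named were the 8 members, MTF1, up to 4 genes per list by the size of the cisplatin difference, genes of the metal and inducer lists past the threshold of the cisplatin test (there were 0), the 10 genes most like the family sum, CDKN1A and MDM2. SLC30A1, RPL8, RPL35A, the rank fits of single members and list or marker genes outside the cisplatin test were singled out after their values were seen. Promoter sequences are from RefSeq (3 of 8 members) and coding sequences from GENCODE 29. The depth of 8504699 to 16425527 counts limits MT1G, MT1M and MT1H most.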

Additional observations from a re-analysis of the deposited data

Results flagged for a closer look

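In 17 groups of 4 control libraries examined for a library far from the others, 2 were found, and chance gives about 1 in 20. MT1G in the DMSO controls had 2.30 RPM in the 2NF control and 1.21 to 1.29 RPM in the other three, a gap of 0.913 of the whole range. MT1H in the media controls had 0.068 RPM, a single count, in the 2DG control and 0 in the rest, a gap of 1 of the whole range. Both members are among those with the fewest counts.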

How the results depend on the processing

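Of 889 values of single members under an alternative, 885 kept their side of the threshold, 4 passed it and 0 reversed. The 4 were MT2A with MMS by rank and without the low concentration, MT2A with COL by rank and MT1A with ASC under the vehicle block, so that 1 member was called in each of these in place of 0. Leaving out a concentration of MMS gave 0 to 1 members. Members called stayed at 0 in 21 alternatives of the cisplatin test (smallest adjusted p 0.369, edgeR, MT1A without CISP high), in 9 of CISP against its control (0.242, MT1A, vehicle block) and in 16 of the class test (0.236, MT2A without COL). Members near 0 changed sign in 22 of 147 cisplatin values, MT1A and MT1F never. Over all genes the cisplatin test called 229 under the vehicle block, and 0 to 85 when a library or chemical was left out, the 85 without CISP high. The class test called 96 with DESeq2, 34 without the filter on low counts, 0 at the low and 0 at the mid concentration, and 0 to 17 with a chemical left out. It called 0 genes without AFB1, 2NF, ETP, 2DG, ASC or AMP, 1 without NaCl, 13 without COL and 17 without MMS. Pairs past 2-fold numbered 58 of 210 with a pseudocount of 0.1 (27.6%, beside 7.82% of all gene and library pairs). Against the mean of the controls of a vehicle they numbered 18 (8.57%, beside 2.25%). The cause of these shifts was not tested.

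The log2 ratio of the family sum moved by more than the SD of the controls as follows. Without MT2A it was -1.65 in CISP low, -1.82 in 2NF mid, 1.05 in ETP low, -1.76 in 2DG low, -0.95 in 2DG high, 1.45, 1.63 and 0.88 in ASC low, mid and high, 1.16, 1.39 and 1.06 in AMP low, mid and high and -1.11 in NaCl high. Against the mean of the controls of the vehicle it was 0.17, -0.23 and 1.02 in 2NF low, mid and high, -0.041, 0.21 and -0.089 in AMP low, mid and high, and 0.55, 0.43 and 0.11 in NaCl low, mid and high. As the mean of the members' log2 ratios it was 0.67 in MMS mid and 0.87 in MMS high. Pseudocounts of 0.1 and 10 and the TMM and DESeq2 scalings moved none of them that far. Under the mean of the controls of the vehicle the MMS ratios could not move, since MMS has a single water control. The matched control set was a block in all the main fits. A further pairing by replicate number was not possible because each condition is 1 library. The run without MMS mid and high and that without the low concentrations of CISP and 2DG were chosen after seeing the data.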
